A study of Mus musculus with 37 samples.

Results

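The chromosome 2 KRAB zinc finger genes Gm14296, Gm14403, Zfp966, Zfp967, Zfp968, Zfp969, Zfp970 and Zfp971 were examined in cortical astrocytes after traumatic brain injury. They are 8 of 21856 measured genes with a symbol, were found through their Ensembl identifiers, and were all present in both tables of values. The 8 genes were chosen by results of these same libraries, in which the comparison of PTE+ with PTE− mice in the ipsilateral cortex had singled out Gm14296. That comparison is therefore given by its values, with no test. Male CD1 mice, written as WT CD31 in the sample labels, received a unilateral controlled cortical impact (CCI) over the right parietal cortex or a sham operation. Injured mice that went on to develop post-traumatic epilepsy are called PTE+ and injured mice that did not are called PTE−. Sham mice had the craniectomy and the electrodes but no impact, so injured and sham mice share the opened skull and the implant. At 4 months after injury, astrocytes were pulled from the cortex of each hemisphere with magnetic beads that bind ACSA-2, an antigen on the astrocyte surface, and their RNA was sequenced in bulk, 1 library for each hemisphere of a mouse. The age of the mice at surgery is not given in the sources used here.

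The ipsilateral table held 19 libraries, from 4 PTE+, 10 PTE− and 5 sham mice. The contralateral table held 18 libraries, from 4 PTE+, 9 PTE− and 5 sham mice. Of 20 mice, 17 gave both hemispheres, and 12 of these were injured. Values are TPM, the share of each library taken by a gene after correction for its length. TPM keep no sequencing depth, so the number of reads behind a value is unknown. Fewer cells of a type and less RNA per cell cannot be told apart in bulk RNA. All 10 astrocyte markers were above 0 TPM in all 37 libraries, and Aldoc, a glycolytic enzyme rich in astrocytes, was the highest of them in each. Markers of other cells were present too. The 6 oligodendrocyte markers summed to between 518 and 4448 TPM in the ipsilateral libraries of sham mice and to between 774 and 2251 TPM in those of PTE− mice.

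KRAB zinc finger proteins are DNA-binding repressors. Their zinc fingers read a DNA sequence, and their KRAB domain recruits Trim28 (also called KAP1), which brings in the histone methyltransferase Setdb1 and heterochromatin proteins of the Cbx family. The family is known for silencing transposable elements and for regulating imprinted regions. Its genes lie in clusters that grew by repeated duplication, separately in rodents and primates, so that neighbours can be nearly the same in sequence. The cluster on distal mouse chromosome 2 is such a rodent-specific expansion. CD1 is an outbred stock, so mice can differ in the copies they carry.

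The 8 members lay within 2.66 Mb of chromosome 2 (chr2:175372436-178034022, GRCm38). Zfp968 came first, followed by Zfp969, Zfp966, Zfp967, Gm14296, Zfp970, Gm14403 and Zfp971. Zfp969, Zfp966 and Gm14296 are annotated on the minus strand and the other 5 on the plus strand, and all 8 are annotated as protein coding by GENCODE. The region reaching 500000 bases beyond them on each side held 92 annotated genes, of which 50 were measured, 42 of them besides the members. The members' own products have no established role in astrocytes that could be given here as background.

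The promoters of the members were compared because genes that share a promoter sequence may be read out together, and because the copies show here how alike the cluster is. Of the 8 members, 6 had a promoter in the RefSeq table (GRCm38.p6), which gives 300 bases around each start, and Gm14296 and Zfp969 had none. A window of 234 bases was common to the 6. Zfp966, Zfp967 and Zfp968 carried it without a difference, in windows at chr2:175931097-175931330 (minus strand), chr2:176520774-176521007 (plus strand) and chr2:175372232-175372465 (plus strand). Zfp970 (chr2:177464507-177464740), Zfp971 (chr2:178023040-178023273) and Gm14403 (chr2:177497976-177498209), all on the plus strand, differed from it at 2, 6 and 13 bases, an identity of 99.2%, 97.4% and 94.4%. The window of Zfp967 was also held exactly by 1 promoter of another gene. The 4 distinct sequences of the members are given 5′ to 3′. Capitals in Zfp967 mark the motif CCAAT or its reverse complement ATTGG, and capitals in the other sequences mark bases that differ from Zfp967.
Zfp967: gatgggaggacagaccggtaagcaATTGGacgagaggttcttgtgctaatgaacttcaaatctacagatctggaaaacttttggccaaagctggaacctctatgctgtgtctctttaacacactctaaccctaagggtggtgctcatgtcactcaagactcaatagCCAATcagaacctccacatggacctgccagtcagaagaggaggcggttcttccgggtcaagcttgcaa
Zfp970: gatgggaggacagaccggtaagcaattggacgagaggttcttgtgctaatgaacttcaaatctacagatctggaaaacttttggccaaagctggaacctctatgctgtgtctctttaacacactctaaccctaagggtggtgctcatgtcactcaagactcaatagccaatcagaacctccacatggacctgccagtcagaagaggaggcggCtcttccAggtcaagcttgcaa
Zfp971: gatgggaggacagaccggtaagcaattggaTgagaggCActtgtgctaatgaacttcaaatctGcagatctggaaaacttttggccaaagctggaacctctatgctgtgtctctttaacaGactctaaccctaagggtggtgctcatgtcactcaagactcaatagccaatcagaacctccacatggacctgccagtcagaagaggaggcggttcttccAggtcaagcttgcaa
Gm14403: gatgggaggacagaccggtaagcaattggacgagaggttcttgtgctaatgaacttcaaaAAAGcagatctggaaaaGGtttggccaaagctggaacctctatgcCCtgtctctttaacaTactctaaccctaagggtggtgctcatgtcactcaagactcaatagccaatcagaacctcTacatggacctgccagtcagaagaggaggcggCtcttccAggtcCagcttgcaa
Both differences of Zfp970, T213C and G220A, were also present in Gm14403, and G220A was present in Zfp971. Positions are counted from 1 at the first base of the window, with the base of Zfp967 first. The CCAAT box is a common promoter element bound by the factor NF-Y. All 6 promoters held CCAAT once on each strand, while 5.8% of the 32851 promoters of the same table held it on both strands and 37.4% on either strand. The letters TATAAA were absent from both strands of the 6 promoters and present in 13.6% of promoters. A match of letters is a description of the sequence only.

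Transcripts of several members were alike too. Only annotated transcripts of measured genes were searched. Each was divided into all its stretches of 100 bases, and the share of stretches also present in a transcript of another gene was counted. It was 100% for Zfp967 and Zfp969, 88.6% for Zfp968 and 71.9% for Zfp966. All 1677 stretches of Zfp967 were present in Zfp966, Zfp968 and Zfp969. The share was 40.7% for Gm14296, nearly all of it with 2210418O10Rik (39.9% of the stretches of Gm14296), and 19.8% for Zfp971, 17.3% for Zfp970 and 4.95% for Gm14403. Every measured gene that shared a stretch with a member lay within the region. Reads from Zfp966, Zfp967, Zfp968 and Zfp969 were thus divided between near-identical copies by the authors' RSEM estimate, and their separate levels are uncertain. By this count among measured genes, Gm14403 is the member whose level depends least on such division.

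**Figure D1:**
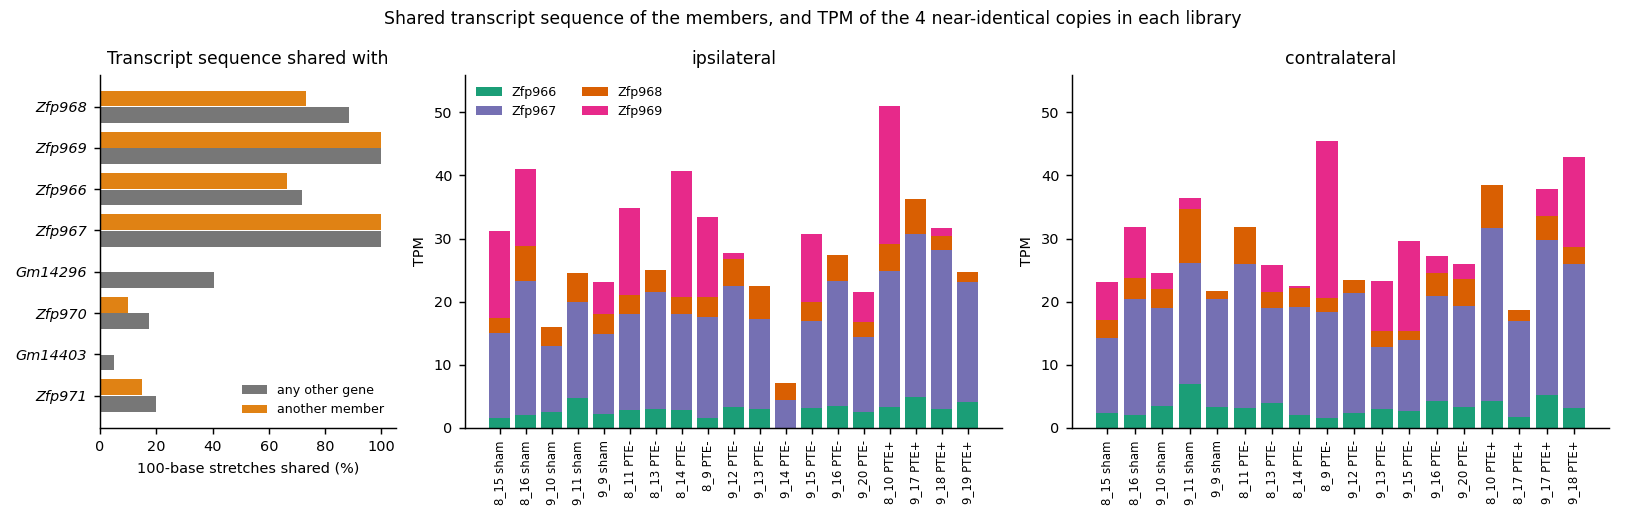
Left, share (%) of the 100-base stretches of each member's transcripts found in any other measured gene (grey) or in another member (orange). Right, stacked TPM of Zfp966, Zfp967, Zfp968 and Zfp969 in each library, named by mouse and group; Zfp969 took from 0 to 54.8% of the total.

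The library of the ipsilateral cortex of PTE− mouse 9_14 stood apart from all others. It had 10727 genes above 0 TPM, against at least 15599 in the other ipsilateral libraries and 15815 in the contralateral ones. Its 8 members summed to 16.6 TPM, against at least 45.5 TPM in the other ipsilateral libraries. In it 4 of 7 microglia, 4 of 7 neuron and 3 of 6 oligodendrocyte markers were listed at 0, as were Zfp966 and Zfp969, while Zfp970 was at 0.06 and Gm14403 at 0.94 TPM. An exact 0 in it may be a failed estimate, so results that rest on it are given with and without it where both were computed. No contralateral library of this mouse was among the samples.

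Over all 37 libraries, the highest mean level belonged to Zfp967 (17 ± 4.88 TPM, SD). Zfp971 (12.9 ± 4.43), Zfp970 (11.1 ± 3.81) and Gm14403 (10.9 ± 4.18) followed, then Gm14296 (7.11 ± 2.61), Zfp969 (5.71 ± 7.04), Zfp968 (3.45 ± 1.56) and Zfp966 (3.04 ± 1.23). Neighbours in this order lay within each other's spread, and Zfp967 and Zfp966 at its ends did not overlap except through the low value of Zfp967 in mouse 9_14. A typical member lay somewhat above a typical gene of the region, with a median of the mean levels of 8.62 TPM in the ipsilateral and 9.42 TPM in the contralateral libraries, against 5.91 and 6.89 TPM over the 42 other genes. The members summed to a median of 74.1 TPM in the ipsilateral and 72.7 TPM in the contralateral libraries, while the others summed to 632 and 681 TPM. The highest of the others were Phactr3, a regulator of actin and protein phosphatase 1 (means of 90.7 and 90.8 TPM in the ipsilateral and contralateral libraries), Gm14410 (70.9 and 70.3), Gm4724 (62.1 and 58.9) and Gm14325 (53.7 and 53.2). Zfp969 varied most, with a coefficient of variation of 123%, and Zfp967 least, with 28.7%. The test across all genes took those whose mean exceeded 5 TPM in 1 or more groups, and 6 of the 8 members passed in each comparison. Zfp966 and Zfp968 did not, and were tested singly by exact permutation.

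**Figure D2:**
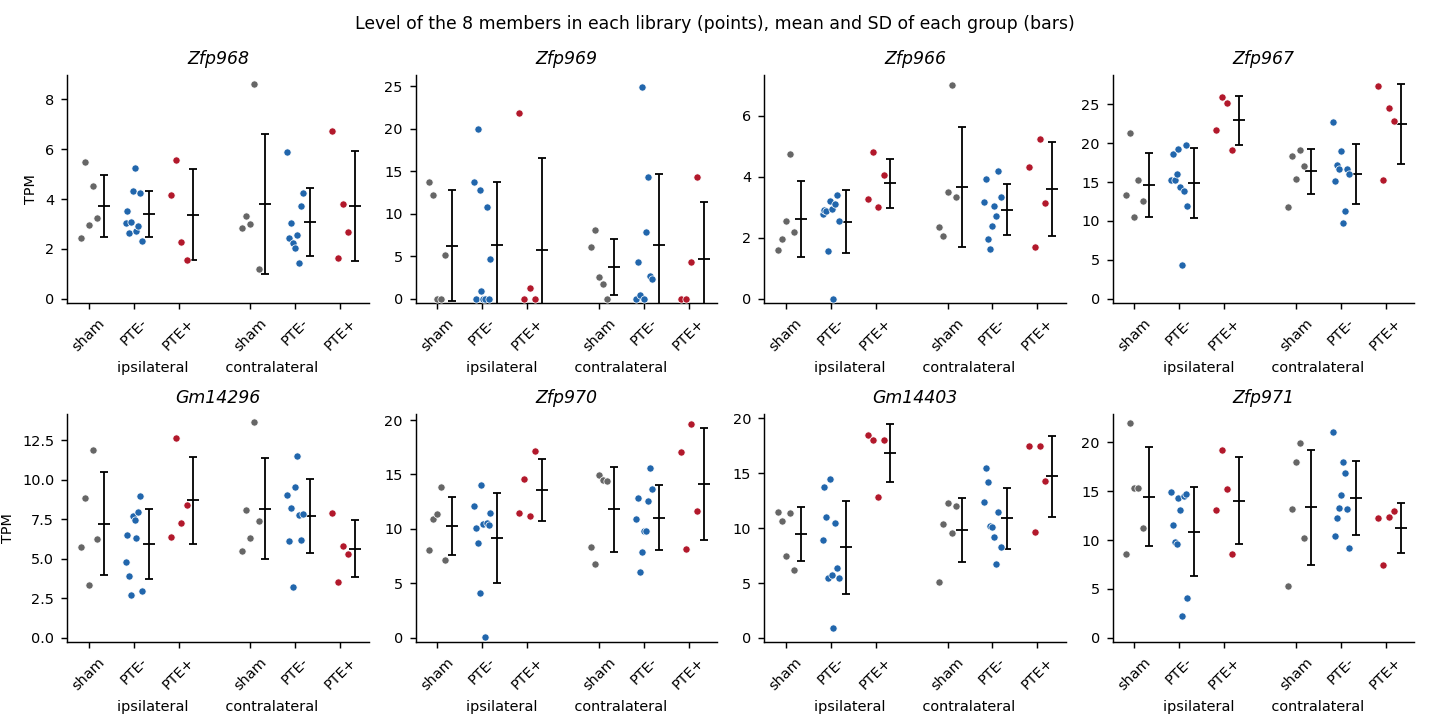
TPM of each member in every library (points) by group and hemisphere, with the mean and SD of each group beside them; bars below 0 are cut at the axis. Zfp967 and Gm14403 lay highest in PTE+ mice of both hemispheres, and Zfp969 ran from 0 to 24.9 TPM within groups.

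Zfp969 was listed at 0 in 13 of 37 libraries and reached 24.9 TPM in the contralateral cortex of PTE− mouse 8_9. In the ipsilateral PTE+ libraries it was at 21.9, 1.23, 0 and 0 TPM, and in the contralateral ones at 14.3, 4.32, 0 and 0 TPM. High and zero values occurred in every group, so no group stood apart. Of 17 mice with both hemispheres, 10 had Zfp969 at 0 in exactly 1 of them, and PTE+ mouse 8_10 had 21.9 TPM on the ipsilateral and 0 on the contralateral side. The median absolute log2 difference between the hemispheres of a mouse was 1.88 for Zfp969 and 0.23 over all tested genes. For the sum of Zfp966, Zfp967, Zfp968 and Zfp969 it was 0.26, close to the value over all genes. Across libraries the sum had a coefficient of variation of 30%, against 123% for Zfp969 alone. The share of Zfp969 in the sum ran from 0 to 54.8%. Whether its swing lay in its level or in how reads were divided was not tested, nor was whether the copies present in each mouse differed.

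The sum of the 4 copies was compared between groups by its values. In the ipsilateral cortex its median was 33.9 TPM in PTE+ (24.7 to 51.0), 27.6 TPM in PTE− (7.09 to 40.7) and 24.5 TPM in sham mice (16 to 41.1). On the contralateral side it was 38.2 TPM in PTE+ (18.6 to 43.0), 26.0 TPM in PTE− (22.6 to 45.4) and 24.6 TPM in sham mice (21.7 to 36.5). The medians were highest in PTE+ mice on both sides, and the ranges of the groups overlapped on both.

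CCI was first compared with sham, with PTE+ and PTE− mice pooled, so the CCI group holds injury with and without epilepsy. No member passed the thresholds in either hemisphere. To be called, a gene needed a fold change of 1.2 or more and an unadjusted limma p below 0.05. In the ipsilateral cortex 0 of 6 tested members were called, where 1.62% of 10434 genes were (129 higher and 40 lower in CCI), and in the contralateral cortex 0 of 6 were called, where 4.05% of 10556 genes were (57 higher and 371 lower). No gene had an adjusted p under 0.05 in either, and 2 had in the ipsilateral cortex without mouse 9_14. Log2 differences are those of mean log2(TPM + 1), which understates changes of low genes, and ran from −0.34 (Zfp971) to 0.17 (Zfp967) for the 6 members in the ipsilateral cortex, and from −0.20 to 0.30 for the same genes without mouse 9_14. Contralateral values ran from −0.19 (Gm14296) to 0.27 (Gm14403). The median over the 6 members was −0.11 beside −0.01 over all genes in the ipsilateral cortex, and 0.06 beside −0.07 in the contralateral cortex. Without mouse 9_14 the ipsilateral medians were 0.01 and 0.03. The exact permutation p, two-sided and over all 8 members, lay between 0.349 and 0.988 in the ipsilateral and between 0.224 and 0.967 in the contralateral cortex.

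Levels of Zfp967, the highest member, show the overlap. In the ipsilateral cortex it measured 10.5, 12.6, 13.4, 15.3 and 21.4 TPM in the sham mice and from 4.36 to 25.9 TPM (median 17.3) in the 14 CCI mice. On the other side it measured 11.8, 15.5, 17.1, 18.4 and 19.1 TPM in the sham mice and from 9.77 to 27.4 TPM (median 16.7) in the 13 CCI mice. In both hemispheres the sham mice fell inside the range of the CCI mice. Without mouse 9_14 the lowest ipsilateral CCI mouse was at 11.9 TPM, and sham mouse 9_10, at 10.5 TPM, lay below it. Gm14403 ran from 0.94 to 18.5 TPM (median 10.7) in the CCI mice of the ipsilateral cortex, against 6.16, 7.48, 10.7, 11.4 and 11.5 TPM in sham mice. Of the 14 CCI mice, 6 lay above and 4 below all sham mice. Its ipsilateral log2 difference of −0.01 became 0.18 without mouse 9_14, and that of Zfp970 went from −0.14 to 0.10, neither of them called. No member was called in the ipsilateral cortex without mouse 9_14. With libraries weighted by their quality (array weights), Zfp967 was called there (log2 difference 0.40, unadjusted limma p = 0.0341 over 19 libraries, by permutation 0.552 unweighted). In that weighted fit 843 of 10434 genes were called.

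Partners of these proteins were examined in the same comparisons of CCI with sham. Of the 24 co-repressor genes listed for KRAB zinc finger proteins, 23 were measured. Trim28, the scaffold that KRAB domains bind, had a mean of 52.8 TPM in the ipsilateral and 52.5 TPM in the contralateral libraries. Setdb1 had means of 7.82 and 7.97 TPM. Of 20 co-repressor genes tested, 0 were called after CCI in the ipsilateral cortex, where 1.62% of all genes were. Their ipsilateral median was −0.03, with 9 above 0, and 0.06 without mouse 9_14, with 14 above 0. In the contralateral cortex, where 4.05% of all genes were called, 2 were, both lower in CCI. These were Trim24, a relative of Trim28 (log2 difference −0.50, SE 0.22, limma p adjusted over all genes 0.978), and Morc3, an ATPase that takes part in silencing (−0.46, SE 0.20, adjusted 0.978). The contralateral median over the 20 co-repressor genes was −0.19, with 1 above 0, beside −0.07 over all genes. The lower side held 371 of the 428 genes called there, so Trim24 and Morc3 followed the direction of most calls. With libraries centred on their median, 155 of 410 calls were lower, so that direction depended on scaling. Of other genes named Zfp and a number, 0 of 221 were called in the ipsilateral and 9 of 224 in the contralateral cortex (1 higher and 8 lower). Of the tested neighbours in the region, 0 of 25 and 0 of 23 were called. Ipsilateral calls among co-repressor, other Zfp and neighbour genes were not counted without mouse 9_14, where 399 of 10424 genes were called.

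Markers of astrocytes and of other cells differed between CCI and sham mice beside these values. Gfap, the intermediate filament of reactive astrocytes, was higher after CCI in the ipsilateral cortex (log2 difference 1.18, SE 0.29, limma adjusted p = 0.909), as was the water channel Aqp4 (0.39, SE 0.17, adjusted 1). Over the 10 astrocyte markers the median was 0.10, with 6 above 0. Without mouse 9_14 it was 0.12, again with 6 above 0. The myelin genes Mog and Mag were lower (−1.76, SE 0.65, and −1.53, SE 0.62, both adjusted 1). All 6 oligodendrocyte markers were below 0, with a median of −1.16, and 7 of 7 neuron markers were too, with a median of −0.44 and none called. Without mouse 9_14, where several of these were listed at 0, the medians were −0.84 and −0.24, with 6 of 6 and 6 of 7 markers below 0. The median over 6 microglia markers was 0.12, and 0.36 without mouse 9_14. Contralateral medians were 0.59 over 2 red blood cell, −0.24 over 7 neuron and −0.23 over 6 oligodendrocyte markers, with none called. The part of these cells in the members' values was not tested.

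**Figure D3:**
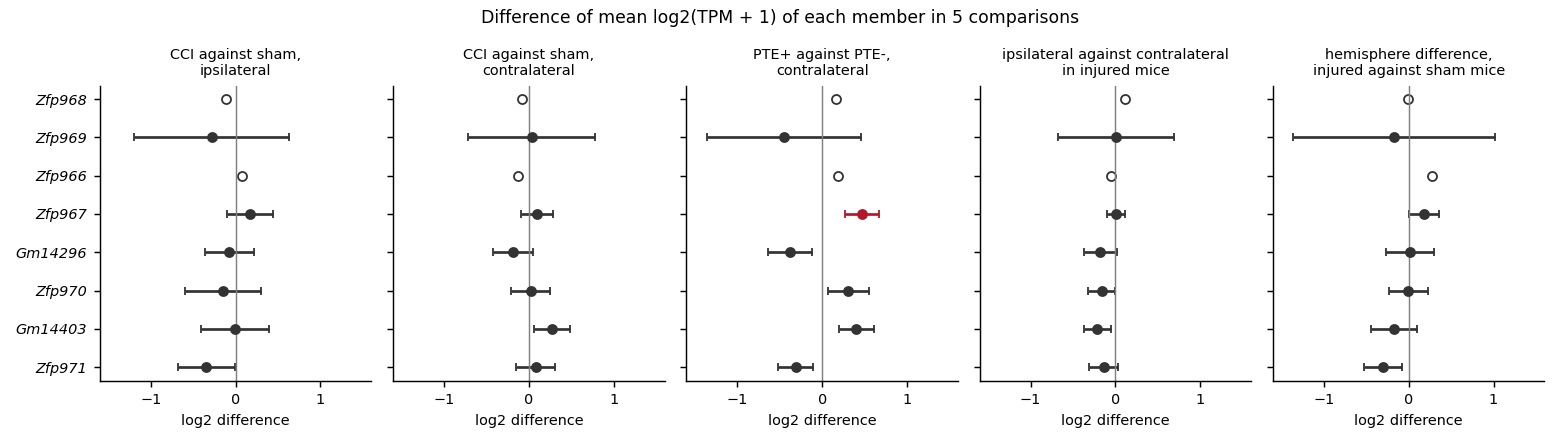
Difference of mean log2(TPM + 1) of each member in 5 comparisons, with the SE from limma as a bar; open circles are Zfp966 and Zfp968, which did not pass the filter and have no SE, and red marks a call. Only Zfp967 in PTE+ against PTE− mice of the contralateral cortex, at 0.47, was called.

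In the ipsilateral cortex the PTE+ mice had higher levels of several members than the PTE− mice. Since this comparison led to the choice of the genes, it is a description. Gm14296 measured 6.41, 7.29, 8.42 and 12.7 TPM in PTE+ mice and from 2.74 to 8.97 TPM (median 6.42) in PTE− mice. Mouse 9_17 alone lay above all PTE− mice, and 5 of 10 PTE− mice were at or above the lowest PTE+ mouse. Gm14403 measured 12.9, 18, 18 and 18.5 TPM in PTE+ mice and from 0.94 to 14.5 TPM (median 7.66) in PTE− mice. Here 3 of 4 PTE+ mice lay above all PTE− mice, and 2 of 10 PTE− mice reached the lowest PTE+ mouse. Zfp967 measured 19.1, 21.7, 25.1 and 25.9 TPM in PTE+ mice and from 4.36 to 19.8 TPM (median 15.3) in PTE− mice. Again 3 of 4 PTE+ mice lay above all PTE− mice.

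The log2 difference was 1.12 for Gm14403 (0.89 without mouse 9_14), 0.75 for Zfp970 (0.41), 0.66 for Zfp967 (0.50), 0.52 for Zfp966 (0.33), 0.52 for Gm14296 (0.53) and 0.44 for Zfp971 (0.25). It was −0.08 for Zfp968 (−0.11 without mouse 9_14) and −0.48 for Zfp969 (−0.70). Mouse 9_14 thus carried much of the difference of Zfp970 and almost none of that of Gm14296. Higher values in PTE+ mice were a wider feature of this comparison. The median over all 10473 genes was 0.12, over 222 other Zfp genes 0.26 and over 22 neighbours of the region 0.41, beside 0.59 over the 6 members that passed the filter. Without mouse 9_14 these medians were 0.08, 0.17, 0.39 and 0.45. Markers of other cells differed in the same libraries. The median was 0.76 over 7 neuron markers (0.45 without mouse 9_14), all above 0 in both cases, and 0.65 over 6 oligodendrocyte markers (0.24). It was −0.16 over 6 microglia markers (−0.43 without mouse 9_14) and −1.06 over 2 red blood cell markers (−0.86). Over 4 endothelial markers it was 0.24 (0.35) and over 4 mural and fibroblast markers 0.31 (0.29), all above 0 in both cases. The part of these cells in the members' values was not tested. The sum of the 4 near-identical copies differed by 0.45, and by 0.26 without mouse 9_14.

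The contralateral libraries were not those that chose the genes, but they came largely from the same animals, 3 of 4 PTE+ and all 9 PTE− mice, so this comparison is not independent of the choice. In it PTE+ mice had more Zfp967 than PTE− mice, while the other 5 tested members did not pass the thresholds. Zfp967 measured 15.3, 22.9, 24.5 and 27.4 TPM in PTE+ mice and from 9.77 to 22.8 TPM (median 16.7) in the 9 PTE− mice. Of the PTE+ mice, 3 lay above all PTE− mice, and mouse 8_17 lay above only 3 of 9. The contralateral sham mice, at 11.8 to 19.1 TPM, were within the range of the PTE− mice. The log2 difference was 0.47 (SE 0.20, exact permutation p = 0.049, two-sided over 715 arrangements with a smallest possible p of 0.0014). The limma p was 0.0336 before and 0.999 after adjustment over all genes, so the call does not pass the correction. With 1 of 6 members called, where 2.79% of 10423 genes were (203 higher and 88 lower in PTE+), the result rests on a single gene. The direction of calls over all genes turned with quantile normalization (125 higher and 261 lower) and median centring (148 and 213). It also turned without mouse 9_17 (60 and 141).

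The call of Zfp967 was lost without PTE+ mouse 8_10 (log2 difference 0.37), 9_17 (0.42) or 9_18 (0.45) and with quantile normalization (0.41) or centring of libraries (0.41), and it was 0.64 without mouse 8_17. The direction was the same in each. Names of mice begin with 8 or 9, which may mark a cohort. Among mice of prefix 9, the PTE+ levels of 22.9 and 24.5 TPM lay above the 5 PTE− mice (9.77 to 19 TPM). Among mice of prefix 8, the PTE+ levels were 15.3 and 27.4 TPM and those of the 4 PTE− mice were 15.1 to 22.8 TPM, so the groups overlapped there. With the prefix as a covariate the difference was 0.46. Since Zfp967 shares its whole transcript with other copies, the sum of the 4 copies bears on it. The sum differed by 0.24 on the log2 scale between contralateral PTE+ and PTE− mice.

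Gm14403 was next to Zfp967 among the members that were higher in contralateral PTE+ mice. It measured 9.67, 14.3, 17.5 and 17.5 TPM in PTE+ mice and from 6.71 to 15.5 TPM (median 10.2) in PTE− mice, and 2 of 4 PTE+ mice lay above all PTE− mice. Its log2 difference was 0.40 (SE 0.21, exact permutation p = 0.0867), which did not pass. It was called with array weights (0.51), where 828 of 10423 genes were, and without PTE+ mouse 8_17 (0.58), where 435 of 10519 were. Gm14296, the gene singled out in the ipsilateral cortex, had the opposite sign on the contralateral side. It measured 3.52, 5.30, 5.81 and 7.91 TPM in PTE+ mice and from 3.24 to 11.5 TPM (median 7.81) in PTE− mice. Its log2 difference was −0.38 (SE 0.26, exact permutation p = 0.171), with all 4 PTE+ mice inside the PTE− range. Zfp971 had −0.31, Zfp970 0.31, Zfp966 0.19, Zfp968 0.16 and Zfp969 −0.45, with exact permutation p from 0.164 to 0.684. The median over the 6 tested members was 0.00, beside 0.05 over all genes and 0.14 over 24 neighbours. Whether PTE acted differently on the 2 sides was not tested, because the ipsilateral values chose the genes.

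Among the partners of these proteins, 1 of 20 co-repressor genes was called in the same comparison. Mphosph8, which reads methylated histone H3 in the HUSH silencing complex, was lower in PTE+ mice (log2 difference −0.49, SE 0.21, limma adjusted p = 0.999). Trim28 did not differ beyond its error (0.14, SE 0.17). Of other Zfp genes 5 of 216 were called, 2 higher and 3 lower, and of neighbours 0 of 24. Of 10 astrocyte markers 1 was above 0 in this comparison, with none called and a median of −0.09, beside 0.05 over all genes. Endothelial markers lay higher in the PTE+ group. All 4 tested of the 5 listed were higher by 0.72 to 0.78, and Pecam1, an adhesion molecule of vessel walls, was called (0.78, SE 0.29, adjusted 0.999). The 5 endothelial markers, of which Cldn5 was the most abundant, summed to 242, 404, 550 and 823 TPM in PTE+ mice and from 156 to 519 TPM (median 323) in PTE− mice, and none was listed at 0. The 7 neuron markers, led by Snap25, were all higher by 0.20 to 1.18, with none called. They summed to 125, 289, 312 and 608 TPM in PTE+ mice and from 35.4 to 579 TPM (median 215) in PTE− mice. The part of these cells in the difference of Zfp967 was not tested.

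The injured side was next compared with the opposite side in the 12 injured mice that gave both. No tested member passed the thresholds. Of 6 tested members 0 were called, where 2.79% of 10350 genes were (173 higher and 116 lower on the ipsilateral side), and 5 genes had an adjusted p under 0.05. With the mouse as a block, which pairs the hemispheres, 467 genes and 0 members were called, and 22 genes had an adjusted p under 0.05. Log2 differences of the 6 tested members, ipsilateral minus contralateral, ran from −0.22 (Gm14403) to 0.00 (Zfp967). Their median was −0.15 beside −0.01 over all genes. Zfp968 and Zfp966, which did not pass the filter, had 0.11 and −0.06. The smallest two-sided exact p from flipping signs over the 12 mice was 0.12, for Gm14403. Gfap showed what a large difference looked like in the same mice, with a log2 difference of 1.21 (SE 0.21, limma adjusted p = 0.00944). The median over the 10 astrocyte markers was 0.006, with 6 above 0. Of 6 oligodendrocyte markers 3 were called lower on the ipsilateral side (Mobp −0.92, Mog −0.84 and Mbp −0.72). None of these passed adjustment in the fit without the block. The median over the 6 was −0.64, with 1 above 0. Pecam1 (−0.46) and the pericyte gene Rgs5 (−0.41) were called lower too, also without passing adjustment. The median over 4 mural and fibroblast markers was −0.20, with 1 above 0, the pericyte gene Pdgfrb (0.11). All 4 endothelial markers were below 0, with a median of −0.39. The part of these cells in the members' values was not tested.

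Whether this hemisphere difference was itself altered by injury was tested over 12 injured and 5 sham mice. Of 6 tested members 0 were called, where 6.5% of 10695 genes were (631 higher and 64 lower in injured mice). Zfp966, which did not pass the filter, was the only member with a permutation p under 0.05. In the sham mice its contralateral level exceeded the ipsilateral in 5 of 5, with 2.35 against 1.58, 2.07 against 1.96, 3.51 against 2.55, 7.00 against 4.73 and 3.32 against 2.20 TPM. In the injured mice it did so in 9 of 12. The mean log2 difference, ipsilateral minus contralateral, was −0.34 ± 0.17 (SD, n = 5) in sham and −0.06 ± 0.24 (SD, n = 12) in injured mice. These differ by 0.28 (exact permutation p = 0.0294, two-sided over 6188 arrangements). The p rose to between 0.0522 and 0.0769 without sham mouse 8_15, 9_10, 9_11 or 9_9. The difference lay between 0.24 and 0.35 without each sham mouse in turn. The values are low, and Zfp966 shares 71.9% of its transcript, so the result is uncertain. Other genes moved in the same comparison. Gfap (1.42, SE 0.32, limma adjusted p = 0.480), Aqp4 (0.43, SE 0.15, adjusted 0.647) and the neuron marker Gad1 (0.54, SE 0.21, adjusted 0.709) were called higher, while the other 6 neuron markers were below 0, with a median of −0.23 over all 7. The astrocyte markers Aldoc (−0.14) and Slc1a2 (−0.004) were below 0 and all others of that list above it. Oligodendrocyte markers had a median of −0.84, with 5 of 6 below 0, and the 2 red blood cell markers one of −0.78. The part of these cells in the values of Zfp966 was not tested. Of 20 tested co-repressor genes 0 were called, with a median of 0.26 and 19 above 0, beside a median of 0.08 over all genes, and of other Zfp genes 11 of 229 (10 higher and 1 lower). Of 26 tested neighbours 1 was called, Gm4724, lower by −0.38 (SE 0.16, limma adjusted p = 0.709).

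**Figure D4:**
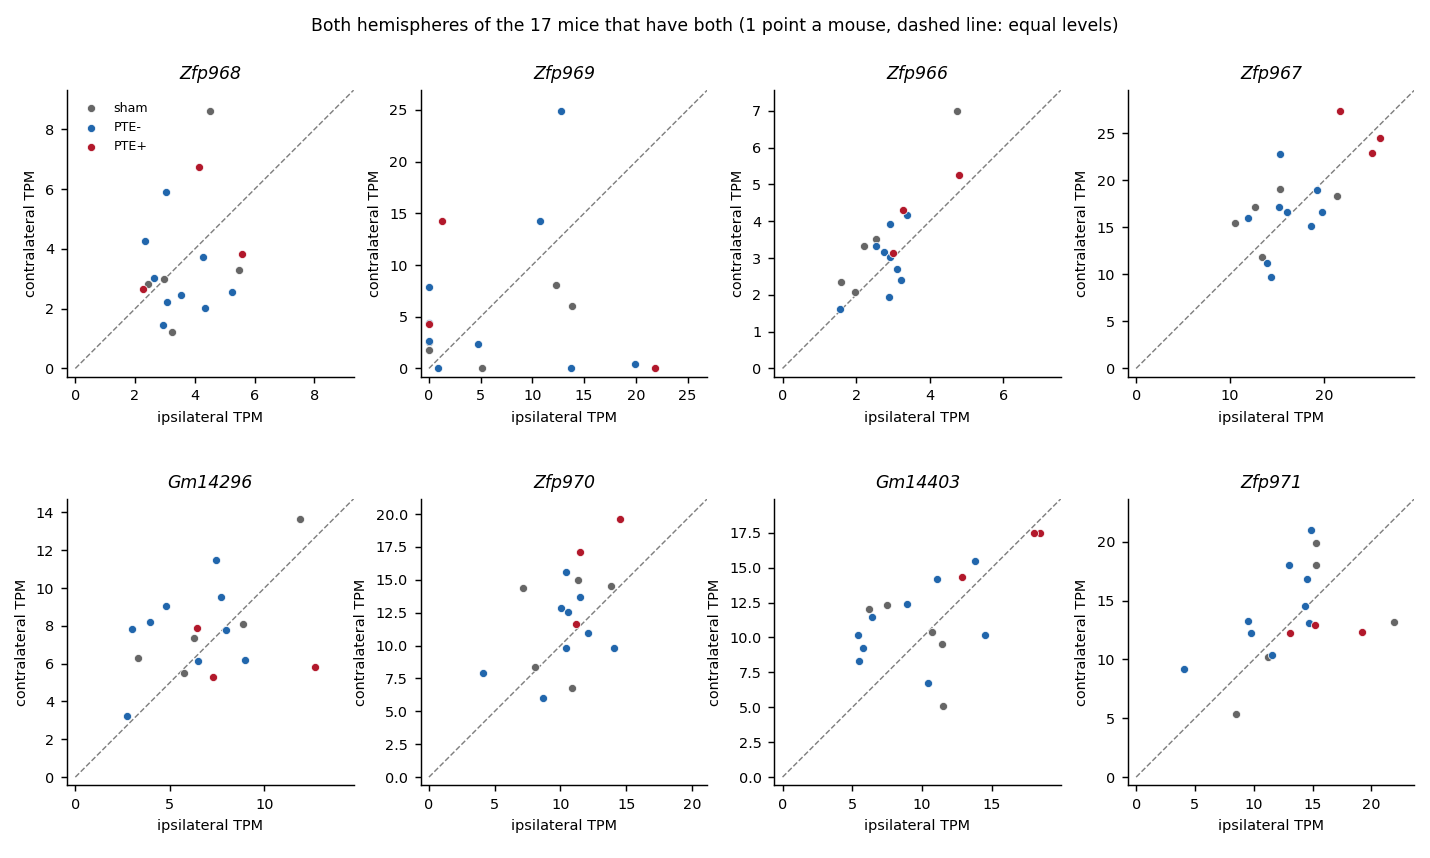
Contralateral against ipsilateral TPM of each member in the 17 mice with both hemispheres, 1 point a mouse, coloured by group; the dashed line marks equal levels. The r of log2(TPM + 1) after centring on groups was 0.826 for Zfp966 and 0.667 for Zfp971. Points of Zfp969 lay along both axes.

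Agreement of the hemispheres of a mouse was asked next, because both share the mouse's genome and a difference between individuals would appear on both sides. Mouse, day of dissociation and library preparation cannot be told apart here. Values of log2(TPM + 1) were centred on the mean of each group and hemisphere. The permutation p of r within mice was under 0.05 for Zfp966, Zfp971 and Gm14296 and not for the other members. Pearson's r over 17 mice was 0.826 for Zfp966 (permutation p = 8e-05, Spearman's rho 0.713, p = 0.00183), and 0.633 without the 2 mice farthest from the median. It was 0.692 in mice of prefix 8 and 0.840 in mice of prefix 9. For Zfp971 it was 0.667 (permutation p = 0.00476, rho 0.662, p = 0.00507), 0.420 without the 2 farthest mice, and 0.755 and 0.655 within the prefixes. For Gm14296 it was 0.493 (permutation p = 0.0429), but rho was 0.365 (permutation p = 0.151), and r fell to 0.353 without the 2 farthest mice and was 0.434 and 0.483 within the prefixes. Zfp970 had the same rho as Gm14296 (0.365, permutation p = 0.151), and its r was 0.478 without the 2 farthest mice. The remaining r values were 0.371 (Zfp970), 0.312 (Zfp967), 0.196 (Zfp968), 0.069 (Gm14403) and −0.092 (Zfp969), with permutation p from 0.142 to 0.791. These are 8 relations with unadjusted p, and such p were not counted over all genes. The permutation exchanged centred values over all mice and made no allowance for the group means taken off, so p may be too small.

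Such agreement was common in these data. The median r over 10869 genes was 0.484 (quartiles 0.299 and 0.623), beside 0.342 over the 8 members. Of these genes, 97.1% had a lower r than Zfp966, 82.1% than Zfp971, 51.6% than Gm14296 and 3.8% than Zfp969. Sham mouse 9_11 was the highest sham mouse on both sides in Zfp966 and Gm14296. Its Zfp966 was 4.73 and 7.00 TPM and its Gm14296 11.9 and 13.6 TPM on the ipsilateral and contralateral sides. The lowest Gm14296 levels belonged to PTE− mouse 8_9, at 2.74 and 3.24 TPM. In a limma fit of mouse terms beside the group and hemisphere, 2 of 6 tested members were called at an adjusted p under 0.05, where 53.0% of 10869 genes were. These were Zfp971 (adjusted p = 0.00477, intraclass correlation 0.665) and Gm14296 (adjusted p = 0.0318, 0.479), and without sham mouse 9_11 only Zfp971 was called. Zfp971 alone was also called within mice of prefix 8 and within mice of prefix 9, where 1349 of 10752 and 1524 of 11121 genes were. Zfp966 had an intraclass correlation of 0.803, and an adjusted p of 0.00722 in the fit without a filter, in which Gm14296 was not called (0.0689). With libraries centred on their median, or quantile normalized, Zfp967 was called in place of Gm14296. The share of called members lay below that of all genes in the main fit, a difference that was not tested. Without sham mouse 8_16 or 9_9 it was 3 of 6, where 48.5% and 49.2% of genes were called. In the main fit 14 of 27 tested neighbours and 131 of 229 other Zfp genes were called.

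Gm14403, by contrast, was alike on both sides in some mice and unlike in others. In PTE+ mice it was 18.5 and 17.5 TPM (8_10), 18 and 17.5 TPM (9_17) and 12.9 and 14.3 TPM (9_18) on the ipsilateral and contralateral sides. In sham mouse 8_15 it was 11.5 and 5.06 TPM and in sham mouse 9_9 6.16 and 12 TPM, while sham mouse 8_16 had 10.7 and 10.4 TPM. PTE− mice varied in the same way, with 13.8 and 15.5 TPM in 8_13 but 5.43 and 10.2 TPM in 8_9 and 6.40 and 11.4 TPM in 9_16. Over all 17 mice this gave an r of 0.385 before centring on groups and 0.069 after it.

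Co-variation between members was described over libraries within each hemisphere, for 28 pairs, again after centring on group means. The median r of the members lay above that of genes in general, a difference that was not tested, with Zfp969 apart from the rest. It was 0.334 over 19 ipsilateral libraries (25 of 28 pairs above 0) and 0.312 over 18 contralateral libraries (22 of 28 above 0). Over all pairs of genes that passed the filter it was 0.086 and 0.103, with 55.8% and 60.4% of pairs above 0. Without mouse 9_14 the ipsilateral median was 0.325, with 22 of 28 pairs above 0, beside 0.127 and 60.8% over all pairs. Of the 28 pairs, 13 in the ipsilateral and 7 in the contralateral cortex had an unadjusted permutation p under 0.05. All of these had r above 0. The same count over all gene pairs was not made, so counts of such pairs are not a result about the members. Without mouse 9_14 there were 11 such ipsilateral pairs, 9 with r above 0 and 2 below, and only 5 pairs passed both with and without it. The 2 below 0 were Zfp969 with Zfp966 (r −0.605, permutation p = 0.00505, rho −0.617, p = 0.00768) and with Zfp970 (r −0.479, permutation p = 0.0367, rho −0.343, p = 0.162). Reads divided among shared sequences can tie such values to each other or set them against each other, so r between copies is not a measure of shared regulation.

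**Figure D5:**
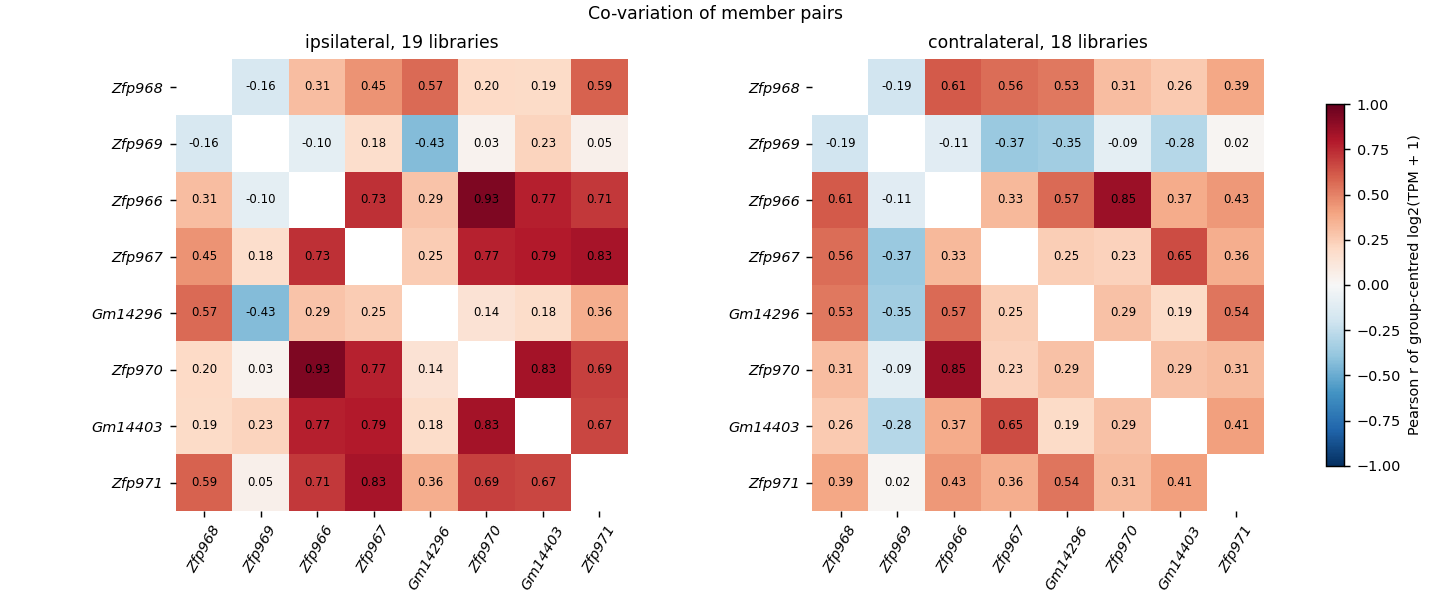
Pearson's r of group-centred log2(TPM + 1) for each pair of members, over 19 ipsilateral and 18 contralateral libraries. Zfp966 with Zfp970 was the strongest pair in both hemispheres (0.931 and 0.853), and Zfp969 had r near or below 0 with most members.

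Zfp966 and Zfp970 formed the strongest pair in both hemispheres. In the ipsilateral cortex r was 0.931 (permutation p = 1e-05, the smallest possible, rho 0.805, p = 7e-05). It was 0.817 without the 2 farthest libraries, 0.740 without mouse 9_14, and 0.826 and 0.951 within prefixes 8 and 9. Contralateral r was 0.853 (permutation p = 1e-05, the smallest possible, rho 0.862, p = 2e-05), 0.880 without the 2 farthest libraries, and 0.931 and 0.609 within the prefixes. Zfp966 shares 6.54% of its 100-base stretches with Zfp970 and 71.9% with any measured gene, and the part of divided reads in this r was not tested. Zfp967 and Zfp971 had r of 0.827 in the ipsilateral cortex (permutation p = 0.00011, rho 0.742, p = 0.00035), 0.750 without the 2 farthest libraries, 0.633 without mouse 9_14, and 0.727 and 0.852 within the prefixes. On the other side it was 0.364 (permutation p = 0.138, rho 0.294, p = 0.237).

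Other ipsilateral relations changed without mouse 9_14. The r of Gm14296 rose from 0.287 to 0.658 with Zfp966 and from 0.254 to 0.592 with Zfp967. It rose from 0.142 to 0.505 with Zfp970 and from 0.362 to 0.578 with Zfp971. Several other relations fell without the library of mouse 9_14. The r of Zfp967 with Zfp970 was 0.769 (permutation p = 0.0131, rho 0.214, p = 0.378) and 0.049 without that library, and it was 0.204 without the 2 farthest libraries. The r of Zfp970 with Gm14403 was 0.832 (permutation p = 0.0008, rho 0.535, p = 0.0195) and 0.442 without it. For Zfp967 with Gm14403 r was 0.792 (permutation p = 0.00181, rho 0.381, p = 0.107) and 0.383 without it. On the other side, where that mouse has no library, r of this pair was 0.653 (permutation p = 0.00332, rho 0.414, p = 0.091), 0.626 without the 2 farthest libraries, and 0.751 and 0.525 within the prefixes. The near-identical copies were not the most alike. Among the 6 pairs of Zfp966, Zfp967, Zfp968 and Zfp969, the median r was 0.242 (−0.164 to 0.730) in the ipsilateral and 0.108 (−0.372 to 0.612) in the contralateral cortex. Without mouse 9_14 the ipsilateral median was 0.005 (−0.605 to 0.605). Zfp969 had an r of −0.372 with Zfp967 in the contralateral cortex (permutation p = 0.127, rho −0.430, p = 0.0738), which did not pass.

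The genes nearest to each member were taken as the 3 with the highest r over all 37 libraries, among 13288 genes with a mean of at least 1 TPM. Zfp966 had Zfp970 (0.890), Chm (0.877) and Ptpn4 (0.868), and without mouse 9_14 these were 0.805, 0.769 and 0.748. Gm14296 had Zfp943 (0.688), Ube2b (0.685) and Zfp973 (0.676), of which Zfp973 lies in the same region, and without mouse 9_14 these were 0.792, 0.686 and 0.758. Zfp968 had Gm14326 (0.762) and Gm6710 (0.664), both of the region, and Gm12166 (0.664). Zfp969 had S100a6 (0.632), Rpl38 (0.627) and Rpl18 (0.604), which encode a calcium-binding protein and proteins of the large ribosomal subunit. The remaining members are given with r without mouse 9_14 second. Zfp967 had Tceal9 (0.797 and 0.637), Lyplal1 (0.796 and 0.550) and Aspa (0.790 and 0.524), and Zfp971 had Fam174a (0.782 and 0.676), Svip (0.779 and 0.657) and Zfp946 (0.748 and 0.595). Zfp970 had Epb41l5 (0.90 and 0.683), Wdr11 (0.897 and 0.655) and Ctdp1 (0.897 and 0.655). Gm14403 had 9530077C05Rik (0.772 and 0.522), Cdpf1 (0.769 and 0.50) and Rwdd2a (0.767 and 0.454).

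Other genes of the region had a higher r with 5 of the members than genes in general, both with and without mouse 9_14. Over 34 genes of the region at 1 TPM or more, members left out, the median r was 0.372 with Zfp967, 0.357 with Zfp971, 0.343 with Gm14296, 0.266 with Gm14403 and 0.251 with Zfp968 without mouse 9_14. Over all genes it was −0.052, 0.009, 0.165, 0.001 and 0.041. Zfp966 (0.177 beside 0.236) and Zfp970 (0.085 beside 0.185) lay below the value over all genes. Zfp969 lay above it (−0.064 beside −0.140), but below it with the library of mouse 9_14 (−0.059 beside −0.035). With that library the medians were 0.344, 0.404, 0.304, 0.274 and 0.237 for the first 5 members, beside 0.162, 0.177, 0.108, 0.193 and 0.056 over all genes. Many of these neighbours share transcript sequence with the members, so the part of divided reads in these values was not tested.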

How the data were processed

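Astrocyte RNA of 37 libraries was prepared by the authors with SMART-Seq v4, an unstranded kit, and sequenced as paired reads on a NovaSeq. Per the submitters' processing notes, reads were trimmed with Trim Galore 0.6.4 and quantified on mm10 with RSEM 1.2.28 and Bowtie2 2.4.1, and counts were compared with DESeq2 1.36.0. The authors deposited TPM per Ensembl gene, which keep no depth, so counting error is not known and no count test was run. The annotation release used by RSEM is not given in the sources used here. Symbols and transcripts came from GENCODE vM21 and RefSeq, promoters from RefSeq (GRCm38.p6), and 21856 of 21975 identifiers had a symbol. No pair of libraries held identical values.

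Groups came from the sample labels. The test was limma 3.58.1 under R 4.3.3 on log2(TPM + 1), letting the variance follow expression, for genes whose mean exceeded 5 TPM in 1 or more groups, and p was adjusted by Benjamini-Hochberg over all genes tested. Single members were tested by two-sided exact permutation, and correlations by 100000 permutations. Those of correlations exchanged group-centred values over all mice or libraries. They made no allowance for the group means taken off, so the p of correlations may be too small. Each library is 1 hemisphere of 1 mouse. Other steps ran in Python 3.11.15 (matplotlib 3.10.9, scipy 1.17.1, pandas 2.3.3, numpy 2.4.6). The fits were tested on simulated data. The members and lists were chosen with earlier results of these data known. Genes named are the members, at most 5 called neighbours per comparison (genes within 500000 bases of the cluster), the 3 genes of highest r for each member, a co-repressor list, and markers of astrocytes, microglia, neurons, oligodendrocytes and their precursors, endothelial, mural and red blood cells. Phactr3, Gm14410, Gm4724 and Gm14325 were named for their level after it was seen.

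Hemispheres were paired by the name of the mouse in the labels. After group means were taken off, both libraries of a mouse correlated over 10869 genes with r from 0.006 to 0.680 (median 0.423, and 16 of 17 mice above 0.1), while 98 pairings of different mice gave a median r of −0.083. Alternatives were a pseudocount of 0.1, no filter or one at 1 TPM, quantile normalization, median centring, array weights, adjusting for the prefix in mouse names or fitting within it, a fit of all 3 groups, the mouse as a block, and leaving out mouse 9_14 or each PTE+ or sham mouse. Summing Zfp966, Zfp967, Zfp968 and Zfp969, the nearest genes without mouse 9_14, the permutation p of ipsilateral pairs, the r of all gene pairs and the medians of lists without it, the r of the region's genes with members left out, and the median level of members and other genes of the region, were chosen after seeing the data.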

Additional observations from a re-analysis of the deposited data

Results flagged for a closer look

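Within the groups of 4 to 10 libraries, 60 sets of values were examined for a value far from the others of its group, of which chance marks about 1 in 20, and 7 held one. Zfp968 was at 8.62 TPM in the contralateral cortex of sham mouse 9_11, where the next sham mouse had 3.31 TPM. Zfp969 was at 21.88 TPM in the ipsilateral cortex of PTE+ mouse 8_10, next to 1.23 TPM. Zfp967 was at 4.36 TPM in the ipsilateral cortex of PTE− mouse 9_14, next to 11.9 TPM, and the same library had 10727 genes above 0 TPM, next to 15599. Gm14403 was at 12.85 TPM in the ipsilateral cortex of PTE+ mouse 9_18, next to 18 TPM. Zfp971 was at 7.43 TPM in the contralateral cortex of PTE+ mouse 8_17, next to 12.2 TPM. The 42 other genes of the region summed to 334.44 TPM in the ipsilateral cortex of PTE− mouse 9_20, next to 542 TPM. The causes of these values were not tested.

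The ipsilateral minus contralateral difference of Zfp966 differed between injured and sham mice by 0.28 on the log2 scale (exact permutation p = 0.0294), tested on the difference itself. Among 8 members it was the 1 with an unadjusted p under 0.05.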

How the results depend on the processing

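TPM give no depth, so the precision of single values is unknown. Groups of 4 or 5 limit every comparison between groups of mice, and levels of copies that share transcripts depend on how RSEM divided reads. Of the member differences under alternatives, 462 kept their direction and side of the threshold, 54 turned sign, 9 lost their call or permutation p under 0.05, and 3 gained a call. For each change listed the cause was not tested.

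Members called went from 0 to 1 after CCI in the ipsilateral cortex with array weights. In contralateral PTE+ against PTE− mice they went from 1 to 0 with quantile normalization or median centring, to 2 with array weights, and to between 0 and 2 without each PTE+ mouse in turn. For the mouse effect they went from 2 to 1 within prefix 8 or 9, and to between 1 and 3 without each PTE+ or sham mouse. The mouse as a block changed no member's call.

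Signs turned for members that were not called. After CCI in the ipsilateral cortex, Zfp966 was −0.05 with a pseudocount of 0.1, Gm14296 0.12 with array weights and 0.04 in the fit of 3 groups, and Zfp971 0.02 with array weights. Zfp970 was 0.08 with quantile normalization, 0.34 with array weights, 0.10 without mouse 9_14 and 0.02 in the fit of 3 groups. Gm14403 was 0.19, 0.39, 0.18 and 0.23 under the same 4 alternatives and 0.01 with the prefix as a covariate. In the contralateral cortex, Zfp969 was −0.31 with a pseudocount of 0.1 and −0.05 in the fit of 3 groups, and Zfp970 −0.04 with array weights. With a pseudocount of 0.1, Zfp969 was −0.20 between the hemispheres of injured mice and 0.10 in the comparison of injured with sham hemisphere differences.

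Omitting single PTE+ or sham mice gave ranges that cross 0. After CCI in the ipsilateral cortex they were −0.22 to 0.01 (Zfp968), −0.79 to 0.18 (Zfp969), −0.03 to 0.26 (Zfp966), −0.28 to 0.11 (Gm14296) and −0.13 to 0.07 (Gm14403). In the contralateral cortex they were −0.32 to 0.21 (Zfp968), −0.43 to 0.36 (Zfp969), −0.26 to 0.09 (Zfp966), −0.01 to 0.16 (Zfp967), −0.14 to 0.12 (Zfp970) and −0.19 to 0.24 (Zfp971). For contralateral PTE+ against PTE− mice they were −0.11 to 0.40 (Zfp968) and −1.23 to 0.08 (Zfp969). Between hemispheres of injured mice they were −0.41 to 0.26 (Zfp969) and −0.01 to 0.03 (Zfp967). For injured against sham hemisphere differences they were −0.23 to 0.20 (Zfp968), −0.68 to 0.43 (Zfp969), −0.12 to 0.09 (Gm14296), −0.20 to 0.19 (Zfp970) and −0.38 to 0.09 (Gm14403).

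Counts over all genes moved more. After CCI in the ipsilateral cortex 169 genes were called, and 379 without a filter, 273 with a filter at 1 TPM, 318 with quantile normalization, 843 with array weights, 399 without mouse 9_14 and 138 to 415 without each PTE+ or sham mouse. In the contralateral cortex 428 became 682 without a filter and 231 to 883 without each PTE+ or sham mouse. In contralateral PTE+ against PTE− mice 291 became 458 without a filter, 828 with array weights and 201 to 489 without each PTE+ mouse. Between hemispheres of injured mice 289 became 493 without a filter, 451 with a filter at 1 TPM and 467 with the mouse as a block. For injured against sham hemisphere differences 695 became 403 to 1094 without each sham mouse, and for the mouse effect 5760 became 1349 and 1524 within prefixes 8 and 9. Alternatives moved the direction of calls, here as higher and lower. After CCI in the ipsilateral cortex 129 were higher and 40 lower, against 201 and 117 with quantile normalization and 115 and 62 with median centring. On the contralateral side 57 and 371 became 203 and 156, and 255 and 155. In contralateral PTE+ against PTE− mice 203 and 88 became 125 and 261, and 148 and 213, and they were 397 and 431 with array weights and 60 and 141 without mouse 9_17.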
